A study of Rattus norvegicus with 22 samples.

Results

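Postsynaptic scaffold and CaMKII genes were followed in rat hippocampus after traumatic brain injury (TBI). The 9 genes Dlg2, Dlg3, Dlg4, Shank1, Shank2, Shank3, Dlgap1, Camk2a and Camk2b were taken by symbol from a table of 17172 genes, whatever their counts, and all 9 were among the 12875 genes with enough reads to be tested. Messenger RNA was sequenced from the hippocampus on the injured side of 14 adult male Sprague-Dawley rats, 1 library per rat. Injured rats received a lateral fluid percussion, a pressure pulse of fluid against the exposed dura, and were killed at day 1 (n = 4) or day 14 (n = 4). Sham rats had the same surgery and the same anesthesia without the percussion, at day 1 (n = 2) or day 14 (n = 4). All groups thus shared the craniotomy, the strain and the sex, no transgene was involved, and a group without surgery was not analysed here.

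The postsynaptic density is the protein meshwork beneath the membrane of excitatory synapses. The membrane-associated guanylate kinases of the Dlg family hold NMDA and AMPA receptors there, SAPAP linkers such as the Dlgap1 product join them to the Shank proteins, and Shank proteins reach on to Homer and the actin cytoskeleton. CaMKII, a calcium/calmodulin-dependent kinase built from alpha (Camk2a) and beta (Camk2b) subunits, binds NMDA receptors after calcium entry and is needed for long-term potentiation in the hippocampus.

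Levels are given as CPM, the counts of a gene scaled to a common library size with TMM factors, so they compare 1 gene across rats and not different genes with each other. Total counts per library ran from 15065540 to 23743703. The smallest count of a member was 237, for Shank2, and the largest 52228, for Camk2b. Replicate libraries differed by far more than counting noise (chi-squared per degree of freedom of 12.8 to 165 over 19 pairs), so the spread between rats set the errors below. Markers of the choroid plexus, the secretory tissue lining the ventricles, summed to 10349 CPM in sham day 1 replicate 1 and to 2000.2 and 8439 CPM in TBI day 14 replicates 2 and 3, against 112 to 244 CPM in the other 11 libraries. Results that rest on these 3 libraries are given without them where a call or a direction changed.

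RefSeq promoter sequences of the newer rat build GRCr8, each running from 250 bases before to 50 bases after a gene's start, were found for 6 of the 9 members (Dlg2, Dlg4, Shank3, Dlgap1, Camk2a and Camk2b). Those of Camk2b and Shank3 are shown because these genes separated the day 1 TBI rats from both day 14 groups. The sequence of Dlg2 is shown because it alone of the 9 passed the test between the sham groups (edgeR adjusted p = 0.0332). These sequences lie at chr14:85147895-85148194 on the minus strand for Camk2b, chr7:122448073-122448372 on the plus strand for Shank3 and chr1:154539421-154539720 on the plus strand for Dlg2. The build is not the rn5 build of the count table. Capitals mark the GC box, searched as GGGCGG and as CCGCCC for the opposite strand, with overlapping matches counted.
Camk2b: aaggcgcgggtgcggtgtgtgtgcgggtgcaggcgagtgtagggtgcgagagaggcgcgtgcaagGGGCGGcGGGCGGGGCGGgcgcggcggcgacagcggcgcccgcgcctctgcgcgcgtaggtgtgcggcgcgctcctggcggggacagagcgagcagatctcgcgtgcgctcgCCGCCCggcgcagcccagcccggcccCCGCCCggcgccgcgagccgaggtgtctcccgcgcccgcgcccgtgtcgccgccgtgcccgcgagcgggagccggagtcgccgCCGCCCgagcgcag
Shank3: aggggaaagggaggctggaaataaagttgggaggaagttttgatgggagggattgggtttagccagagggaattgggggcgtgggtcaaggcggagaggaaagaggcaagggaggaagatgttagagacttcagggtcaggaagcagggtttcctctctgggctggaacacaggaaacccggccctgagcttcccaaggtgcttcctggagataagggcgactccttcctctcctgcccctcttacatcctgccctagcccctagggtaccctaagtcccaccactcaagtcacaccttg
Dlg2: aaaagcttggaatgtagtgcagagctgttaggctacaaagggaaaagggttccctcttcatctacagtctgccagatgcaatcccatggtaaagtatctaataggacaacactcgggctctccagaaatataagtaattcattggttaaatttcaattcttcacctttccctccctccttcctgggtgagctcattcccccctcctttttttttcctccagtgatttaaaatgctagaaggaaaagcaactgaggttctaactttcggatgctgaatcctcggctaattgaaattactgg

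The Camk2b window held 6 GC boxes and 59 CpG dinucleotides, more CpG than 99.9% of the 33469 rat promoters in the same table, whose median was 7. Its G and C made up 81.3% of the bases. The Shank3 window held 4 CpG and the Dlg2 window 3, neither with a GC box, and a GC box was present in 33.1% of all promoters. Among the others Camk2a held 12 CpG, Dlg4 held 9, and the 2 Dlgap1 starts held 7 and 6. Core letters of the cAMP response element (TGACG or CGTCA) were found 2 times in the Camk2a window and in none of the other windows of members, against 21.2% of all promoters with at least 1. The TATA letters (TATAAA or TTTATA) were found 2 times at the second Dlgap1 start, against 14.2% of all promoters. CACGTG, the only form of the E box searched, was in no window of a member, against 6.42% of all promoters. These are matches of letters, and no binding was measured.

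At day 1, all 9 members had a lower mean in TBI than in time-point–matched sham rats, and 3 of the 9 were DEGs at an adjusted p value under 0.05 (edgeR quasi-likelihood test, Benjamini-Hochberg over 12875 genes). The 3 were Dlgap1, Dlg3 and Camk2b, at 0.506, 0.548 and 0.552 times the sham level. Over all tested genes, 7.93% were lower by the same rule, so the members' share was above the background. The members' median log2 fold change was -0.70, against -0.02 over all tested genes. For 4 of the 9 (Shank1, Shank2, Dlgap1 and Camk2b) every TBI rat lay below every sham rat, which held for 14.1% of all tested genes. In bulk tissue, fewer cells of a type and less RNA per cell cannot be told apart.

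**Figure D1:**
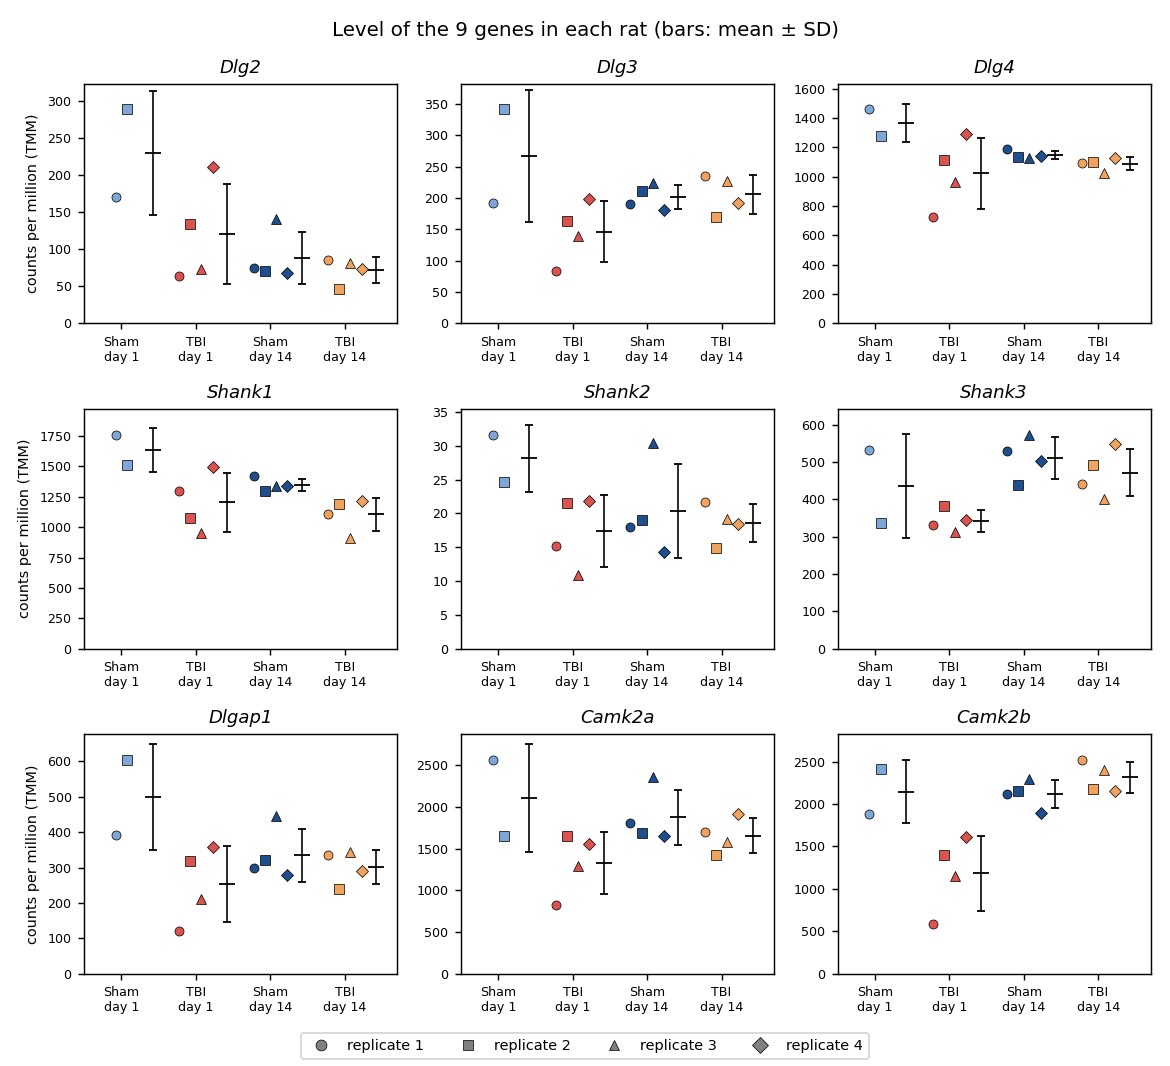
CPM of each of the 9 genes in the 14 rats, by group, 1 panel per gene with its own axis from 0. Symbols are rats, and the bars beside them are the mean ± SD of the group. The day 1 TBI rats of Camk2b, at 583 to 1607 CPM, lie below all rats of the other 3 groups.

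Among the Dlg scaffolds, Dlg2 encodes PSD-93, Dlg3 encodes SAP102 and Dlg4 encodes PSD-95, the most studied of the family. Dlg3 stood at 192 and 341 CPM in the 2 sham rats of day 1 and at 83.2, 164, 139 and 198 CPM in the 4 TBI rats. Only TBI replicate 4 reached the lower sham rat. The log2 fold change was -0.87 ± 0.27 (SE, edgeR adjusted p = 0.0368), and 4 of 24 alternative settings took it above 0.05.

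Dlg4 stood at 1459 and 1274 CPM in sham rats of day 1 and at 722, 1116, 966 and 1288 CPM in TBI rats. Replicate 1 of the TBI group was far below the rest, and replicate 4 lay between the sham rats. Its log2 fold change of -0.42 ± 0.18 did not pass (edgeR adjusted p = 0.111). Dlg2 had the widest spread, with 170.4 and 288 CPM in sham rats against 64.1, 134, 73.7 and 210.2 CPM in TBI rats, and TBI replicate 4 again overlapped the sham range. Its mean difference was as large as that of Dlg3, -0.93 on the log2 scale, but the SE was 0.42 and the edgeR adjusted p was 0.129.

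The 3 Shank genes encode the master scaffolds of the deeper layer of the density. Shank1 stood at 1763 and 1509 CPM in sham rats of day 1 and at 1295, 1076, 949 and 1498 CPM in TBI rats, so the groups did not overlap, although TBI replicate 4 lay just under the lower sham rat. Shank2, the lowest count of the 9, stood at 31.7 and 24.6 CPM in sham and at 15.2, 21.5, 10.9 and 21.8 CPM in TBI rats, again without overlap. Neither passed the test, with log2 fold changes of -0.44 ± 0.18 for Shank1 (edgeR adjusted p = 0.0908) and -0.70 ± 0.29 for Shank2 (edgeR adjusted p = 0.108).

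Shank3, a gene known for its role in Phelan-McDermid syndrome and autism, differed between the 2 sham rats. They stood at 533 and 337 CPM, and the 4 TBI rats were close together at 329.9, 383, 312 and 344 CPM. The second sham rat thus lay inside the TBI range. The log2 fold change was -0.35 ± 0.18 (edgeR adjusted p = 0.196), and without sham replicate 1, the library with choroid plexus RNA, it was 0.02.

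Dlgap1, which encodes the linker SAPAP1, showed the largest mean difference of the 9. It stood at 392 and 605 CPM in sham rats of day 1 and at 121, 318, 212 and 359 CPM in TBI rats. All TBI rats lay below both sham rats, with replicate 1 lowest. The log2 fold change was -0.98 ± 0.33 (edgeR adjusted p = 0.0475), close to the threshold, and 13 of 24 alternative settings took it above 0.05.

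Of the kinase subunits, Camk2b stood at 1883 and 2408 CPM in sham rats of day 1 and at 583, 1395, 1150.4 and 1607 CPM in TBI rats. No TBI rat reached the sham range. The log2 fold change was -0.86 ± 0.27 (edgeR adjusted p = 0.0377), and 8 of 24 alternative settings took it above 0.05. Camk2a stood at 2564 and 1648 CPM in sham rats and at 819, 1654, 1295 and 1550.3 CPM in TBI rats, and TBI replicate 2 was level with the lower sham rat. Its log2 fold change of -0.66 ± 0.25 did not pass (edgeR adjusted p = 0.0771), although it passed with DESeq2, which called 4 of the 9 lower. With limma-voom the count was 3.

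**Figure D2:**
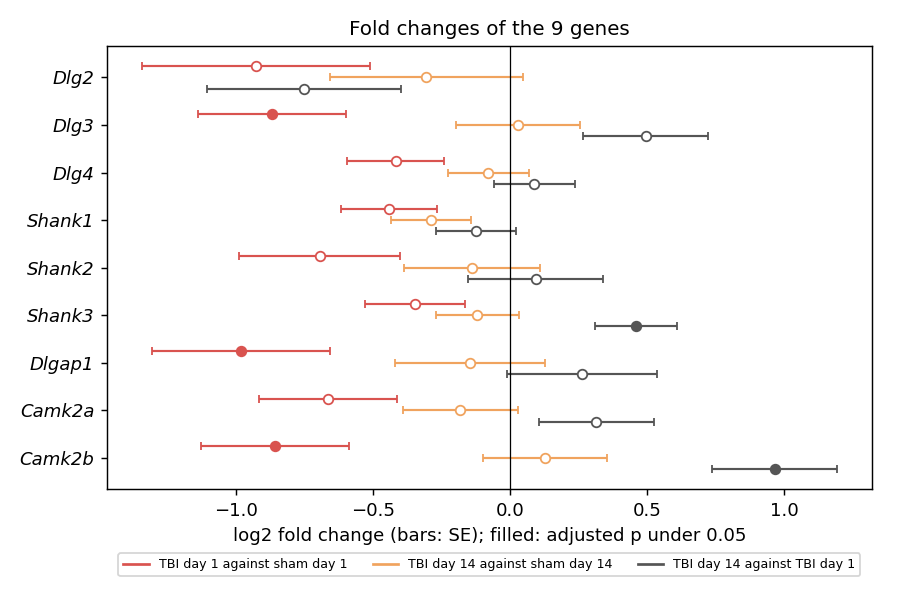
Log2 fold change of each member with its SE for TBI against sham at day 1 (red), TBI against sham at day 14 (orange) and TBI day 14 against TBI day 1 (grey). Filled points have an adjusted p under 0.05, 3 in red, 0 in orange and 2 in grey (Shank3 and Camk2b).

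The day 1 calls rested on few rats. The sham libraries of day 1 were the highest in different genes. Replicate 1 was the highest of all 14 rats in 4 members (Dlg4, Shank1, Shank2 and Camk2a), and replicate 2 in 3 others (Dlg2, Dlg3 and Dlgap1). TBI day 1 replicate 1 was the lowest of all in 5 members, and replicate 3 in 2. Without sham day 1 replicate 2 the count of members called lower at day 1 went from 3 to 0, without TBI day 1 replicate 3 to 0, and without TBI day 1 replicate 4 to 6. It was 1 without sham day 14 replicate 1 or 2 or TBI day 14 replicate 1, which enter through the shared spread, and 0 when only the day 1 groups were fitted. For 8 of the 9 members the fold change stayed below 0 with any 1 library left out, the exception being Shank3. For Shank1, Shank2, Dlgap1 and Camk2b, whose groups did not overlap, leaving out 1 rat could hardly reverse the sign. Rats of day 14 do not enter the day 1 means, so leaving them out says little about the direction.

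**Figure D3:**
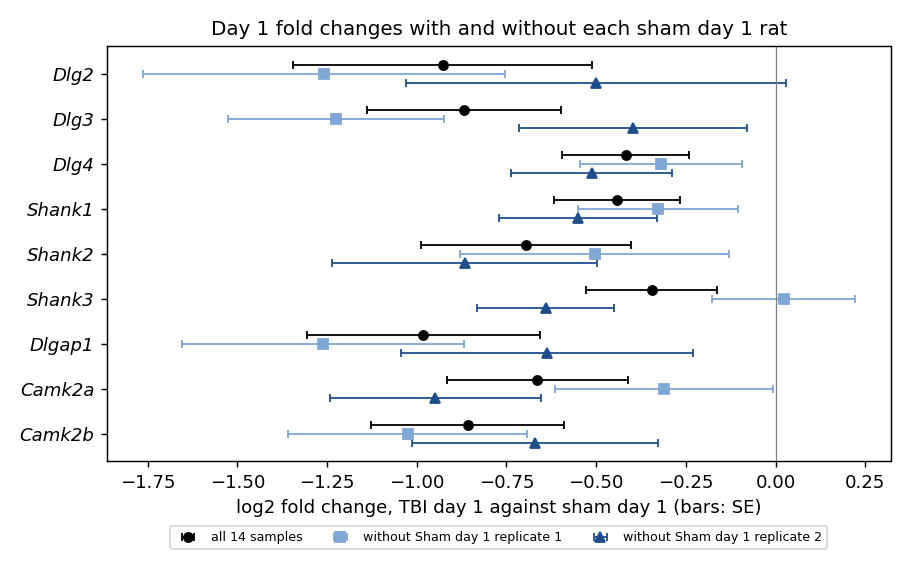
Log2 fold change (points) with its SE (bars) at day 1 for each member with all 14 samples and without either sham day 1 rat, when the remaining 1 is assumed to vary like the other groups. Dlg2, Dlg3, Dlgap1 and Camk2b lie closer to 0 without replicate 2, and Shank3 reaches 0.02 without replicate 1.

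Markers of neurons moved with the members at day 1. Summed over 12 neuron markers, the levels were 8067 and 11805 CPM in sham day 1 rats and 2954 to 7239 CPM in TBI day 1 rats, without overlap, and TBI day 1 replicate 1 was again lowest. Of these 12, 5 were DEGs, all lower, and their median log2 fold change of -0.78 lay close to the members' median. Eno2, 1 of the 12, was listed at 0 in that rat and barely counted in any. Markers of hippocampal fields, such as Prox1 of the dentate gyrus and Wfs1 of CA1, summed to 1015 and 1109 CPM in sham day 1 and to 280 to 1015 CPM in TBI day 1 rats, of which replicate 4 was level with the lower sham rat. At least 6 of the 7 markers were counted in each of the 14 rats. Of the 6 tested, 3 were DEGs at day 1, all lower, among them Prox1 at -1.66 ± 0.51 (log2 fold change, edgeR adjusted p = 0.0334). Wfs1 went the other way, at 0.29 ± 0.45 (edgeR adjusted p = 0.683). The part of these shifts in the members' differences was not tested.

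Other genes of the same machinery were described from lists written with earlier results of these data known. Of 22 tested further scaffold genes, 5 fell at day 1 and 0 rose, with a median log2 fold change of -0.53. Lrrc7 (densin-180, a CaMKII-binding scaffold) fell by 0.85, Kalrn (kalirin, an exchange factor for Rac in spines) by 0.79 and Grip1 (an AMPA receptor anchor) by 0.66 on the log2 scale. Of the relatives, 5 stayed above the threshold with edgeR. Their log2 fold changes were -0.34 for Dlg1 (SAP97), -0.68 for Dlgap2, -0.46 for Dlgap3, -0.33 for Dlgap4 and -0.90 for Homer1, with edgeR adjusted p values of 0.0535 to 0.107. DESeq2 called Dlg1 and Dlgap4 lower.

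Of 23 genes of calmodulin-dependent kinases, phosphatases and calmodulin itself, 6 fell at day 1 and 0 rose, with a median of -0.65. The upstream kinase Camkk2 fell by 1.21, the nuclear kinase Camk4 by 1.14 and Camkk1 by 0.79 on the log2 scale. Camk2g, which encodes the gamma subunit, fell by 0.68 (edgeR adjusted p = 0.0152) and the CaMKII inhibitor Camk2n1 by 0.58 (edgeR adjusted p = 0.0401). Camk2d, the delta subunit, had the opposite sign, at 0.55 ± 0.30 (edgeR adjusted p = 0.214). Delta was higher in all TBI day 1 rats than in all sham day 14 rats, as were 2855 of 12875 tested genes. Its log2 fold change there was 1.32 ± 0.25 (edgeR adjusted p = 0.000564). That comparison mixes the day with the injury, and the sham groups alone differed by 0.77 ± 0.29 (edgeR adjusted p = 0.0741).

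The next list held the membrane proteins that the scaffolds anchor and their partners. Of 20 tested, 12 fell at day 1 and 0 rose, with a median of -0.84. Lgi1, a secreted synaptic ligand, fell by 1.44, the AMPA receptor subunit Gria1 by 1.23 and Adam23, an Lgi1 receptor, by 1.13 on the log2 scale. Genes of the inhibitory postsynapse, which lack these scaffolds, had a median of -0.88. The scaffold gephyrin (Gphn) fell by 0.39 on the log2 scale. The lists' shares stand against the same background of 7.93%.

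At day 14, 0 of the 9 members passed the test (edgeR), while 4.43% of all tested genes did in either direction. At an unadjusted p under 0.05 the count was also 0, against 13.3% of all tested genes, and it was 0 with limma-voom and with DESeq2, against 3.72% and 6.16%. The log2 fold changes ran from -0.31 (Dlg2) to 0.13 (Camk2b), with a median of -0.14. Each was smaller than its day 1 value in size.

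Shank1 came closest. It stood at 1418, 1300.3, 1342 and 1338 CPM in sham rats of day 14 and at 1107, 1189, 912 and 1215 CPM in TBI rats. Every TBI rat lay below every sham rat, and replicate 3, a library with choroid plexus RNA, was the lowest. The log2 fold change was -0.29 ± 0.15 (edgeR unadjusted p = 0.0685, adjusted p = 0.446). All TBI rats lay below all sham rats of day 14 in 1 of 9 members and in 754 of 12875 tested genes.

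Dlg4 was nearly level at day 14, with 1190.3, 1135, 1129.5 and 1143 CPM in sham and 1095, 1102, 1024 and 1129.6 CPM in TBI rats. Camk2b stood at 2121, 2150.2, 2296 and 1896 CPM in sham and at 2522, 2171, 2401 and 2159 CPM in TBI rats. The groups of both genes overlapped, and the log2 fold changes were -0.08 ± 0.15 and 0.13 ± 0.23. Camk2a stood at 1810.0, 1681, 2354 and 1654 CPM in sham and at 1695, 1419, 1581 and 1917 CPM in TBI rats, a log2 fold change of -0.18 ± 0.21.

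The remaining 5 members overlapped between the groups at day 14, with log2 fold changes of -0.31 ± 0.35 for Dlg2, 0.03 ± 0.23 for Dlg3, -0.14 ± 0.25 for Shank2, -0.12 ± 0.15 for Shank3 and -0.15 ± 0.27 for Dlgap1. Sham day 14 replicate 3 was the highest of its group in Dlg2, Dlg3, Shank2, Shank3, Dlgap1, Camk2a and Camk2b. In Dlg2 it stood at 141 CPM beside 75.1, 70.8 and 67.6 CPM. Without it, the fold changes of Dlg2, Shank2 and Dlgap1 at day 14 lay at or above 0. In the lists of further scaffolds, calmodulin-dependent genes, membrane partners and inhibitory genes, 0 genes passed at day 14 with edgeR and 0 with limma-voom. At an unadjusted p under 0.05 there were 1, 2, 0 and 1 genes, all lower, and DESeq2 called 1 gene, of the inhibitory list.

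The effect of TBI was also compared between the days. The difference of the log2 fold changes (day 1 minus day 14) was below 0 for all 9 members, with a median of -0.56. With edgeR 0 of 9 passed, against 3.68% of all tested genes. Before adjustment 2 members passed 0.05, against 19.2% of all tested genes. They were Camk2b, at -0.99 ± 0.35 (edgeR adjusted p = 0.137), and Dlg3, at -0.90 ± 0.36 (edgeR adjusted p = 0.179). The count was 0 with limma-voom (2.16% of all genes) and 0 with DESeq2 (8.18%). Without TBI day 1 replicate 1 the edgeR count was 1, Camk2b. The day 1 and day 14 effects are therefore not shown to differ for any member with all libraries.

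The day 1 TBI rats were next set against the 4 sham rats of day 14, the larger sham group, with the day as a second difference that cannot be told apart from the injury. Camk2b and Shank3 were lower, 2 of 9 against 21.0% of all tested genes, a share near the background. Camk2b was at 0.559 times the sham day 14 level (log2 fold change -0.84 ± 0.23, edgeR adjusted p = 0.00767) and Shank3 at 0.669 times (-0.58 ± 0.15, edgeR adjusted p = 0.00614). Shank3 stood at 530.2, 438, 574 and 503 CPM in sham day 14 rats, above all 4 TBI day 1 rats. Both calls held in all 24 alternative settings. Camk2a also did not overlap, at -0.50 ± 0.21, and did not pass with edgeR (adjusted p = 0.0669) or limma-voom, but passed with DESeq2, which called 3 of the 9 lower. Every TBI day 1 rat lay below every sham day 14 rat in 3 of 9 members and in 2292 of 12875 tested genes. Dlg2 had the opposite sign here, at 0.44 ± 0.35.

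Between the injured groups, Camk2b and Shank3 were higher at day 14 than at day 1, 2 of 9 against 17.6% of all tested genes. This comparison shares the TBI day 1 rats with the one before. Camk2b was 1.95 times as high (log2 fold change 0.97 ± 0.23, edgeR adjusted p = 0.00399), and each TBI rat of day 14, at 2159 CPM or more, exceeded each of day 1, at 1607 CPM or less. Shank3 stood at 441, 493, 402 and 547 CPM in TBI day 14 rats, above all 4 of day 1, and was 1.38 times as high (0.46 ± 0.15, edgeR adjusted p = 0.0257). Such separation held for 2 of 9 members and for 2154 of 12875 tested genes. Without TBI day 1 replicate 3, TBI day 14 replicate 2 or TBI day 14 replicate 4 the Shank3 call was lost and the count was 1. Dlg2 had the opposite sign, at -0.75 ± 0.35 (edgeR adjusted p = 0.104), and passed as lower without TBI day 1 replicate 1. For Dlg3 the difference was 0.49 ± 0.23, which did not pass (edgeR adjusted p = 0.098).

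The sham groups differed in 1 of 9 members, against 11.3% of all tested genes higher at day 1. Dlg2 was 2.59 times as high in sham day 1 as in sham day 14 rats (log2 fold change 1.37 ± 0.41, edgeR adjusted p = 0.0332), and both sham day 1 rats, at 170.4 and 288 CPM, exceeded all 4 of day 14, at 67.6 to 141 CPM. The call was lost without sham day 1 replicate 2 and without sham day 14 replicate 1, 2 or 4, and the difference was then 0.94 to 1.30 on the log2 scale. The other 8 members differed by -0.23 (Shank3) to 0.57 (Dlgap1) and did not pass. Dlg4 and Shank1 were also higher in both sham day 1 rats than in all 4 of day 14. Such separation held for 3 of 9 members and for 2746 of 12875 tested genes. Dlg2 in TBI day 1 rats, at 64.1 to 210.2 CPM, overlapped both sham groups.

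**Figure D4:**
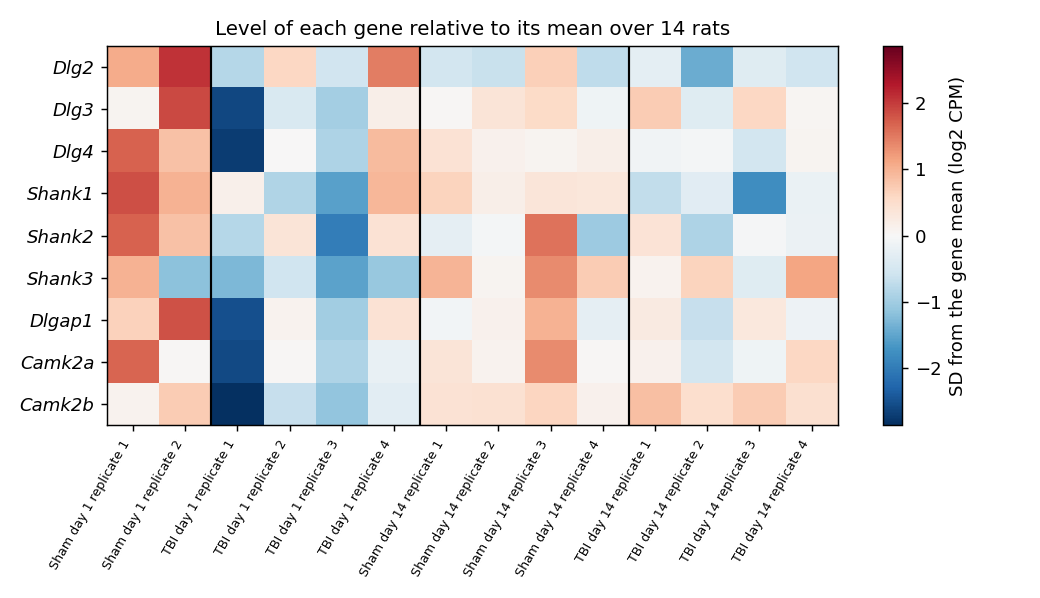
Level of each member in each rat as the number of SD from its own mean over the 14 rats (log2 CPM, red above and blue below the mean), with lines between the groups. Sham day 1 replicate 1 is above the mean in all 9 genes and replicate 2 in all but Shank3, and TBI day 1 replicate 1 is the lowest rat for 5 genes. TBI day 1 replicate 4 is above the mean in Dlg2, Dlg3, Dlg4, Shank1, Shank2 and Dlgap1. It is below the mean in Shank3, Camk2a and Camk2b, and averages 0.30 SD over the 9 genes.

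The members did not vary as 1 block across the 14 rats. Pearson's r of log2 CPM was 0.94 between Dlg3 and Dlgap1, 0.89 between Dlg3 and Camk2b, and 0.84 between Dlg4 and Camk2a. It was 0.75 between the 2 kinase subunits. The lowest values were -0.23 between Dlg2 and Shank3, 0.08 between Shank1 and Camk2b and 0.17 between Dlg2 and Camk2b. These values are over 14 libraries that share groups and depth, and they describe these libraries. Dlg3, Dlgap1 and Camk2b, the 3 DEGs of day 1, were among the most alike across rats, with 0.79 between Dlgap1 and Camk2b. The same day 1 rats enter these values and the calls, so this likeness does not add to the calls. Dlg4, not a DEG, reached 0.82 with Dlgap1. Outside the list, the genes closest to the members' mean profile were Gfpt1 (r = 0.93), Ppm1k (0.93), Slc36a4 (0.93), Ppp2r2c (0.93) and Rab15 (0.92), and those closest to Camk2a were Dusp8 (0.89), Oscp1 (0.89), Hs6st1 (0.89), Sdr42e1 (0.88) and Irgq (0.88).

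The balance of the kinase subunits was taken as the log2 ratio of Camk2a to Camk2b counts within each library, which needs no scaling between libraries but carries the length of each gene, so only its changes can be read. It was 0.49, 0.24, 0.17 and -0.05 in TBI day 1 rats and -0.57, -0.61, -0.60 and -0.17 in TBI day 14 rats. The groups did not overlap, and the mean difference was -0.70, so the ratio at day 14 was 0.614 times that at day 1. The exact two-sided permutation test gave p = 0.0286, the smallest that 70 arrangements allow, and 0.114 after Benjamini-Hochberg adjustment over 4 comparisons. With these group sizes no comparison of the 4 could reach an adjusted p under 0.05, so the adjusted values say nothing for or against a difference. With any 1 library left out the difference ran from -0.81 to -0.61. Since the groups did not overlap, its sign could not have changed.

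Sham rats of day 1 had ratios of 0.45 and -0.55, and those of day 14 had -0.23, -0.36, 0.04 and -0.20. The 2 sham rats of day 1 lay far apart, on opposite sides of all 4 sham rats of day 14. TBI minus sham was 0.26 at day 1 (exact permutation p = 0.6, adjusted 0.733, with 0.0667 the smallest p that the 15 arrangements allow) and -0.30 at day 14 (exact permutation p = 0.114, adjusted 0.229). Sham day 1 minus sham day 14 was 0.14 (exact permutation p = 0.733, adjusted 0.733).

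**Figure D5:**
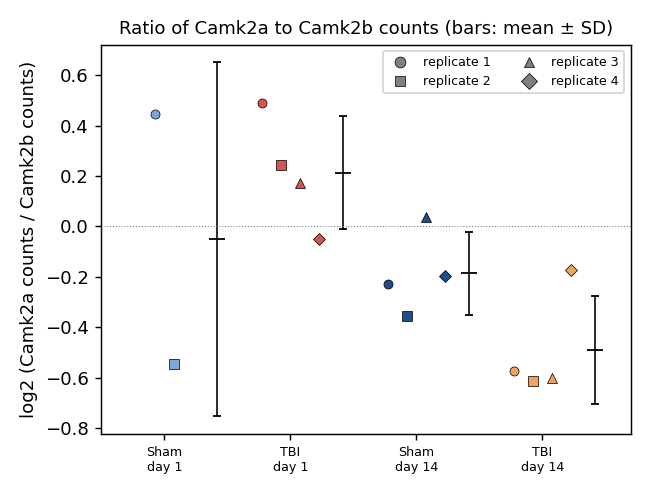
Log2 ratio of Camk2a to Camk2b counts in each rat by group, with symbols for rats and the mean ± SD of each group beside them. TBI day 1 rats lie at -0.05 to 0.49 and TBI day 14 rats at -0.61 to -0.17, while the 2 sham day 1 rats lie at -0.55 and 0.45.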

How the data were processed

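Stranded, polyadenylated RNA libraries from 14 rats were sequenced. The authors mapped the reads to rn5 (STAR 2.4.2a) and assigned these to UCSC genes (featureCounts 1.5.0). The strand setting of the counting is not given in the sources used here, so overlapping or antisense genes may share reads. The deposited values are raw counts per gene without normalization (whole numbers), and 0 rows lack a gene name.

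The model was edgeR 4.0.16 in R 4.3.3, with TMM factors, the default filter by group (minimum count 10) and a quasi-likelihood fit of 1 mean per group over all 14 samples. No batch term was fitted, whereas the paper mentions a batch correction for its expression trajectories. P-values were two-sided and adjusted by Benjamini-Hochberg over 12875 genes at a threshold of 0.05. Levels are CPM, and log2 CPM used a prior count of 2. The ratio of Camk2a to Camk2b counts was tested by exact permutation in Python 3.11.15.

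The members, gene lists and tests were chosen with earlier results of these data known. Named genes are the 9 members, 9 fixed relatives, up to 3 genes per list with the largest called change, and the 5 genes most like the members' mean or Camk2a over the 14 samples, although a few of these are not reported here. Lists of microglia, astrocyte, oligodendrocyte, endothelial, red blood cell and thalamus markers were computed for checks of the tissue. At day 1, 5 of 10 microglia markers rose and 2 fell, 1 of 8 astrocyte markers and 1 of 5 endothelial markers rose, 2 of 6 oligodendrocyte markers fell, and 0 of 4 red blood cell markers and 1 of 3 thalamus markers passed.

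Alternatives were limma-voom (limma 3.58.1), DESeq2 1.42.0, median-of-ratios factors, no filter, at least 10 counts in every sample, a replicate block, only the groups compared, 1 pooled sham group, and each sample left out. Leaving out the 3 libraries with choroid plexus RNA, or sham day 1 replicate 2 with TBI day 1 replicate 1, was added after seeing the data. The promoters are RefSeq sequences of GRCr8. Columns of other series numbered 0. The H3K4me3 peak lists were not used here, since no rn5 annotation was used. Sources differ on the number of sham day 14 rats, and the 4 labelled samples were used.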

Additional observations from a re-analysis of the deposited data

Results flagged for a closer look

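Over 30 groups of 4 rats (each member and the kinase ratio), 2 held a rat set apart from the other 3, measured as its gap to the nearest rat divided by the group's range, above Dixon's 95% critical value for 4 samples. Chance gives about 1 in 20 such groups. Dlg2 in sham day 14 had a value of 0.856, with replicate 3 highest at 7.14 log2 CPM. The log2 ratio of Camk2a to Camk2b in TBI day 14 had a value of 0.911, with replicate 4 highest at -0.17.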

How the results depend on the processing

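Of 1260 fold changes of members under the alternatives, 1184 kept their direction and their side of the threshold, 33 lost and 16 gained a call, and 27 changed sign. Most of the 1260 were not calls in the main fit and had none to lose, so these totals do not measure how stable the calls were. The day 1 calls were lost in 4 of 24 settings for Dlg3, 13 for Dlgap1 and 8 for Camk2b. The larger moves in the counts of called members were as follows. Smaller ones are left out, such as 3 to 4 lower at day 1 with DESeq2. At day 1 the count of 3 lower became 0 with only the groups compared, 1 without both sham day 1 replicate 2 and TBI day 1 replicate 1, and 0 to 6 with 1 library left out. TBI day 1 against sham day 14 gave 4 lower against the 6 pooled sham rats in place of 2, and 2 to 3 with 1 library left out. For TBI day 14 against TBI day 1, leaving out 1 library gave 1 to 3 higher in place of 2 and 0 to 1 lower in place of 0, and leaving out both libraries named above gave 1 lower. Sham day 1 against sham day 14 gave 0 higher without both, and 0 to 1 with 1 library left out. The difference between the days gave 0 to 1 lower. The cause of these moves was not tested.

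Fold changes that changed sign, none of them a call, were as follows. Without the 3 libraries with choroid plexus RNA, Shank3 was 0.011 at day 1 and 0.036 in the difference between days, Camk2a was -0.18 between sham groups, and the ratio of Camk2a to Camk2b was -0.36 between sham groups. With 6 pooled sham rats, Dlg3 was -0.12 at day 14 and Dlg2 was -0.16 for TBI day 1 against sham. Without sham day 1 replicate 2 and TBI day 1 replicate 1, Dlg4 was -0.046 for TBI day 14 against TBI day 1, Dlg3 -0.069, Shank3 0.061 and Camk2b -0.17 between sham groups, and Dlg2 0.016 in the difference between days. Camk2b was -0.00809 between sham groups with at least 10 counts in every sample.

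With 1 library left out, values at day 1 ran from -0.64 to 0.022 for Shank3. At day 14 they ran from -0.42 to 0.0089 for Dlg2, -0.041 to 0.11 for Dlg3, -0.28 to 0.12 for Shank2 and -0.23 to 0.019 for Dlgap1. Shank2 ran from -0.37 to 0.026 for TBI day 1 against sham day 14 and from -0.077 to 0.22 for TBI day 14 against TBI day 1, where Dlg4 ran from -0.047 to 0.22. Between sham groups the ranges were -0.068 to 0.76 for Dlg3, -0.60 to 0.061 for Shank3, -0.18 to 0.45 for Camk2a and -0.17 to 0.19 for Camk2b. In the difference between days Shank3 ran from -0.52 to 0.14 and Dlg2 from -1.03 to -0.19. The ratio ran from -0.23 to 0.76 at day 1, -0.41 to -0.23 at day 14, -0.81 to -0.61 between TBI groups and -0.36 to 0.63 between sham groups.

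With the replicate number as a block, the day 1 count was 3, the day 14 count 0, and no other count moved enough to be listed above. Deviations of same-numbered rats had r of -0.35 to 0.24 over 18 pairs (median 0.03, 5 over 0.1). For rats of unlike number it was -0.43 to 0.35 over 54 pairs (median -0.03, 17 over 0.1). No pairing by number was seen. These values cannot exclude it, since the 2 sham day 1 rats mirror each other around their mean. Replicate spread exceeded counting noise in every pair of libraries, and sham day 1 held 2 rats.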
